A study of Mus musculus with 9 samples.

Results

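The vacuolar proton pump, the cathepsins and the other genes of the lysosome were followed through the 3 layers of the newborn mouse growth plate. The set holds 56 listed genes: subunits of the pump and its accessory proteins, proteins that serve the pump at the osteoclast's ruffled border, cathepsins, enzymes that degrade glycosaminoglycans and other lysosomal contents, lysosomal membrane proteins, and Tfeb. A gene was read from 1 probe set, the brightest on average of those assigned to that gene alone, and 54 of the 56 had such a probe set, out of 18193 genes in all. Atp6v0c and Cd63 had none. Of the 54, 51 lay above the filter on low signals and were tested among 11313 genes, and Atp6v1b1, Ctsg and Ctsw lay below it.

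The study profiled the growth plate of the proximal tibia in Black Swiss mice, wild type and newborn (0 days of age). The groups are 3 round, 3 flat and 3 hypertrophic cell layer samples, each layer taken from 3 litters. The replicate number was taken as the litter, which no label ties to a number, and every per-litter value below rests on that reading. Per the labels' protocols, a sample pooled the layer cut by hand from frozen, unfixed sections of 18 to 20 tibiae of 1 litter, so the spread between samples is a spread between pooled litters. No step isolated chondrocytes from other cells, and sex is not given in the labels.

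The round and hypertrophic labels were borne out by most of their markers, and no markers of the flat layer itself were listed. Prg4, the joint lubricant of the outermost cartilage, averaged 15342 ± 3014 in the round, 385 ± 281 in the flat and 199 ± 54.4 in the hypertrophic samples (signal, SD, n = 3). Col10a1, the collagen of hypertrophic chondrocytes, averaged 139 ± 111 in the round, 664 ± 239 in the flat and 11857 ± 918 in the hypertrophic samples. Sfrp5, a secreted Wnt antagonist of the resting zone, averaged 202 ± 41.1, 198 ± 37 and 148 ± 77.3 in the same order and passed no test. Ihh, listed as a marker of hypertrophic chondrocytes, averaged 79.6 ± 65.6, 81 ± 61.9 and 185 ± 70 and lay below the filter on low signals. Median signals ran from 123 to 152 over the arrays. In RNA quality the litter 1 round array stood apart: its 3'/5' ratio was 4.25 (actin) and 2.59 (Gapdh), where no other array exceeded 2.06 and 1.28. The flat array of litter 3 had the highest summed signal of 12 skeletal muscle genes, at 493864.

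The pump couples ATP hydrolysis by its cytosolic V1 sector to proton transport through its membrane V0 sector, and it acidifies lysosomes in all cells. Acid activates cathepsins and the hydrolases that take apart matrix glycosaminoglycans, and the transcription factor Tfeb switches on many of these genes. An osteoclast carries the pump to its ruffled border, with the a3 and d2 subunits encoded by Tcirg1 and Atp6v0d2, and secretes acid and cathepsin K onto bone and calcified cartilage, which borders the hypertrophic layer.

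Most of these genes had their highest signal in the hypertrophic layer. The mean was highest there for 41 of the 51 tested members, in the round layer for 9 and in the flat layer for 1, and 30 members had their lowest mean in the flat layer. Between the hypertrophic and flat layers 31 members rose and 0 fell (limma with litter as a block, adjusted p under 0.05), where 6.12% of all tested genes rose and 5.22% fell (11.3% in all). At an unadjusted p under 0.05, 39 members were higher and 0 lower in this contrast. Between the hypertrophic and round layers 32 rose and 2 fell, where 12.4% of all genes rose and 12.7% fell (25.1% in all). Between the flat and round layers 5 rose and 3 fell, where 8.39% of all genes rose and 8.64% fell (17.0% in all). The flat minus round count of rises was 3 without the round array of litter 1 or 2 or the flat array of litter 1, 2 without the flat array of litter 2, and 2 without the litter 1 round and litter 3 flat arrays together. Without the hypertrophic array of litter 2, 1 member fell for hypertrophic minus round.

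The median log2 difference of the 51 members was 0.66 for hypertrophic minus flat, 0.56 for hypertrophic minus round and -0.12 for flat minus round, while the medians of all tested genes were 0.00, 0.01 and -0.01. All differences are on the scale of log2(signal + 26), which understates those of dim genes. For 32 of the 51 members every hypertrophic array lay above all 6 other arrays, as it did for 7.82% of all tested genes. These contrasts share arrays, so the counts are not independent of each other. Signals are from pieces of tissue, in which fewer cells of a type and less RNA per cell cannot be told apart.

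**Figure D1:**
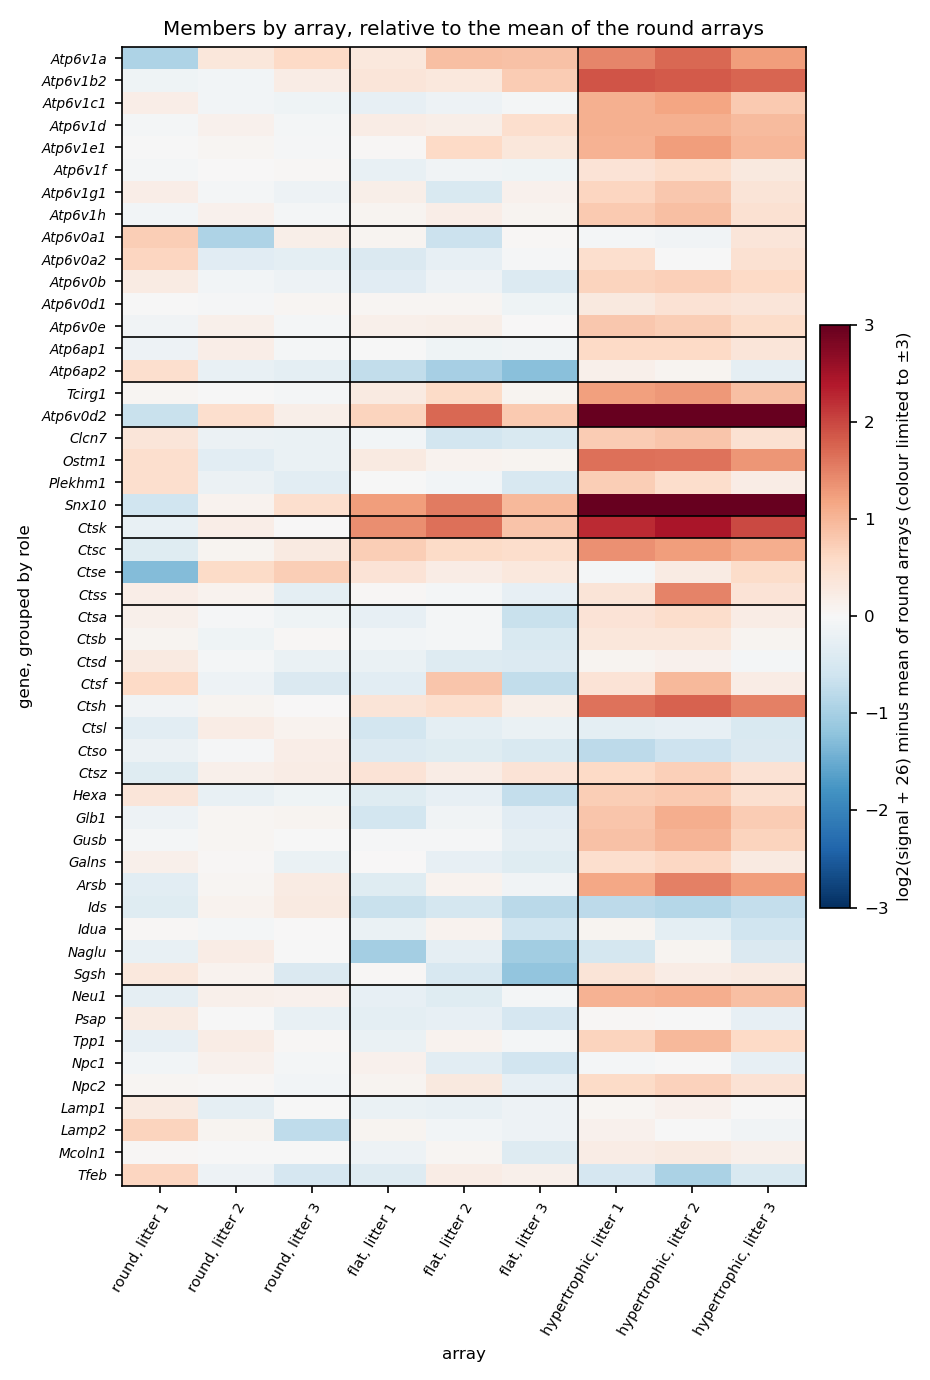
Log2(signal + 26) of the 51 tested members on each of the 9 arrays, minus the mean of the 3 round arrays, with genes in rows grouped by role, arrays in columns by layer and litter, and colour limited to ±3. The columns of the hypertrophic layer are the reddest for most rows. Atp6v0d2 and Snx10 are the most intense there, and Ids, Ctso and Tfeb are among the blue rows.

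Most genes of the general pump rose in the hypertrophic layer. Of the 15 tested genes of the general pump, 12 rose and 0 fell between the hypertrophic and round layers (12 higher and 0 lower at an unadjusted p under 0.05), with a median log2 difference of 0.66. Between the hypertrophic and flat layers 11 of them rose, with a median of 0.67, a count that was 6 without the hypertrophic array of litter 1 and 7 without that of litter 2. All 8 general V1 genes rose between the hypertrophic and round layers, by 0.41 to 1.82 on the log2 scale, and 3 of 5 V0 genes did. Atp6v0a1, Atp6v0a2 and Atp6ap2 did not pass against round.

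Atp6v1a and Atp6v1b2 encode the A and B subunits, which form the ATP-hydrolysing head. Atp6v1b2 had signals of 1278, 1313 and 1642 in the round layer, 1811, 1751 and 2379 in the flat layer and 5245, 5100.1 and 4757 in the hypertrophic layer (litters 1, 2 and 3 in order, here and throughout). The 3 layers did not overlap. It differed by 1.82 ± 0.14 (log2 ± SE) for hypertrophic minus round (adjusted p = 1.56e-06), by 1.35 ± 0.14 for hypertrophic minus flat (9.75e-05) and by 0.48 ± 0.14 for flat minus round (0.0341). With the mean of all its probe sets the hypertrophic minus flat difference was 0.52 (0.19). That mean, here and throughout, takes in any probe sets below the filter, for Atp6v1b2 those with log2 means of 6.72 and 6.03. Its other probe set above the filter differed by 1.33 for hypertrophic minus flat. The flat minus round call was lost without any round or flat array or the hypertrophic array of litter 2 (adjusted p 0.0502 to 0.153).

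Atp6v1a had 545, 1352 and 1630.1 in the round layer, 1338, 2027 and 1996 in the flat layer and 2998, 3558 and 2599 in the hypertrophic layer. All hypertrophic arrays lay above the others, the flat and round arrays overlapped, and the round array of litter 1, whose RNA quality differed, was the lowest of the 9. The difference was 1.48 ± 0.24 for hypertrophic minus round (adjusted p = 0.000638). Neither 0.78 ± 0.24 for hypertrophic minus flat (0.0558) nor 0.71 ± 0.24 for flat minus round (0.0613) passed. Without that round array hypertrophic minus flat was 0.78 and passed (0.0065), while flat minus round was 0.34 (0.248). Hypertrophic minus flat also passed without the round array of litter 3 (0.0169) or the hypertrophic array of litter 3 (1.08, 0.0235).

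Genes of the stalks that join the head to the membrane also had their highest signals in the hypertrophic layer. Atp6v1c1, the C subunit needed to assemble both sectors, had 2592, 2127 and 2046 in the round layer, 1887, 2001 and 2156 in the flat layer and 4748, 5108 and 3856 in the hypertrophic layer. The flat and round arrays overlapped and every hypertrophic array lay above them, by 1.16 ± 0.14 against flat (adjusted p = 0.000291) and 1.01 ± 0.14 against round (0.000233). Atp6v1d, part of the rotating central stalk, had 1620.2, 1851 and 1629 in the round layer, 1973, 1912 and 2402 in the flat layer and 3591, 3597 and 3282 in the hypertrophic layer. Its hypertrophic arrays lay above all others, with a difference of 1.03 ± 0.14 for hypertrophic minus round (0.00014) and 0.73 ± 0.14 for hypertrophic minus flat (0.00429).

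Atp6v1e1, of the peripheral stalk, had 2005, 2131 and 1981 in the round layer, 2093, 3080.1 and 2600.5 in the flat layer and 4252, 4878 and 4117 in the hypertrophic layer. No hypertrophic array overlapped the others, and the difference was 1.10 ± 0.13 for hypertrophic minus round (adjusted p = 5.27e-05) and 0.78 ± 0.13 for hypertrophic minus flat (0.00227). Its other probe set above the filter differed by -0.02 between the hypertrophic and round layers, and with the mean of all its probe sets the differences were 0.55 (0.174) and, against flat, 0.67 (0.161).

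The other V1 genes rose by 0.41 to 0.72. Atp6v1f, of the central stalk, rose by 0.41 ± 0.12 for hypertrophic minus round, Atp6v1g1, of the peripheral stalk, by 0.62 ± 0.17, and Atp6v1h, a regulatory subunit, by 0.72 ± 0.14 (adjusted p = 0.0237, 0.0171 and 0.0023). The call for Atp6v1f was lost without the hypertrophic array of litter 1 or 2 or the round array of litter 2 (adjusted p 0.107 to 0.137). That for Atp6v1g1 was lost without the round array of litter 2 or 3 or the hypertrophic array of litter 2 (0.0524 to 0.149). With the mean of all probe sets Atp6v1h differed by 0.06 (0.88) and Atp6v1g1 by 0.22 (0.328). Atp6v1b1, the B subunit of kidney and inner ear, stayed between 10.7 and 92.5 on all 9 arrays and was below the filter.

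In the membrane sector 3 of 5 tested general subunits rose, by 0.36 to 0.70. Atp6v0b, of the proton-carrying ring, had means of 4263 ± 159 in the hypertrophic layer and 2714 ± 415 in the round layer, a log2 difference of 0.66 ± 0.13 (adjusted p = 0.00278). Atp6v0e, the small e subunit, rose by 0.70 ± 0.12 (0.000906). Atp6v0a2, a general a subunit that is prominent in the Golgi, differed by 0.31 ± 0.24 for hypertrophic minus round and 0.54 ± 0.24 for hypertrophic minus flat and passed in neither (0.377 and 0.174).

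Of the accessory proteins, Atp6ap1, which helps the pump assemble, rose by 0.52 ± 0.13 for hypertrophic minus round and 0.61 ± 0.13 for hypertrophic minus flat (adjusted p = 0.00909 and 0.00867). Its calls were lost without the hypertrophic array of litter 1 (adjusted p = 0.0589 and 0.0649) or litter 2 (0.0534 and 0.0537). Atp6ap2, the prorenin receptor, had 13019.9, 7909.8 and 7504 in the round layer, 5526, 4606 and 3856 in the flat layer and 10141, 9689.8 and 7618 in the hypertrophic layer. The flat arrays were the lowest 3 while the hypertrophic and round arrays overlapped, giving -0.99 ± 0.13 for flat minus round (0.000292), 0.97 ± 0.13 for hypertrophic minus flat (0.000645) and -0.02 ± 0.13 for hypertrophic minus round (0.949).

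Promoter sequence was available for 44 of the 56 members, as 300-base windows around RefSeq transcription start sites on build GRCm38.p6. The centre of the CLEAR element, to which Tfeb and its relatives bind, was searched as TCACGTGA, which reads the same on both strands and contains the shorter E-box CACGTG. It was found in 7 of the 44 members (15.9%), Atp6v1a, Atp6v0d1, Atp6v0e, Clcn7, Ctsa, Ctsd and Mcoln1, against 304 of 27025 genes in the promoter table (1.12%) and 2.29% of the tested genes with a window. CACGTG, with or without the flanking letters, was found in 14 members (31.8%), against 8.09% of all genes and 11.8% of the tested genes. Of the 7 members with TCACGTGA, 5 rose between the hypertrophic and round layers, with a median log2 difference of 0.39. Of the 33 tested members whose windows lacked it, 20 rose and 2 fell, with a median of 0.56, and of the 11 tested members without a window, 7 rose. A match of letters is a description and not a bound site.

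Promoter windows show the element in 3 pump and chloride transporter genes and, for contrast, cathepsin K, whose window holds neither TCACGTGA nor CACGTG. Each runs 5′ to 3′ on the gene's own strand, and the capitals mark CACGTG, extended to TCACGTGA where all 8 letters are present.
Atp6v1a, chr16:44139210-44139509, minus strand: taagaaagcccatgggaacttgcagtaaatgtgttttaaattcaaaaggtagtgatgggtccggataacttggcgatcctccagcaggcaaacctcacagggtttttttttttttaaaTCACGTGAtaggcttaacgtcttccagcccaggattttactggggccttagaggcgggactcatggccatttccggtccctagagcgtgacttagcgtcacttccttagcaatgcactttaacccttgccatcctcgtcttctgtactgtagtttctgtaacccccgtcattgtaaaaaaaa
Atp6v0d1, chr8:105566015-105566314, minus strand: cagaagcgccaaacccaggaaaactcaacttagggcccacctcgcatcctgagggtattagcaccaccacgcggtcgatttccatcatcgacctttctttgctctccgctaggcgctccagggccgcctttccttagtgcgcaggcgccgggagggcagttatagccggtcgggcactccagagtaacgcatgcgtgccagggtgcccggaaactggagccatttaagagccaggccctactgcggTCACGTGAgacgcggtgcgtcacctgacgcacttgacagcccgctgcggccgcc
Clcn7, chr17:25133141-25133440, plus strand: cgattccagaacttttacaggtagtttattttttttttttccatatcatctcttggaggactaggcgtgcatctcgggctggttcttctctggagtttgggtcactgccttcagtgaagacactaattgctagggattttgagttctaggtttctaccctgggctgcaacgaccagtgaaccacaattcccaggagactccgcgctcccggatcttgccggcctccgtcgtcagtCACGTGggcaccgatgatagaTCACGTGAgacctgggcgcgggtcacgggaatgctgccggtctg
Ctsk, chr3:95498960-95499259, plus strand: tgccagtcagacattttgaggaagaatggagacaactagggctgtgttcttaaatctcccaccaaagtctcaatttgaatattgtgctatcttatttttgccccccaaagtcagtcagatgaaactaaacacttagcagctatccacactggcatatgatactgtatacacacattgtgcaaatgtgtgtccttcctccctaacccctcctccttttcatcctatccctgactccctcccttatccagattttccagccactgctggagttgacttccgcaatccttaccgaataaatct
In Clcn7 the window shown holds 2 copies of CACGTG, of which 1 is a full TCACGTGA. Another window of Clcn7, chr17:25136381-25136680, is not shown and holds neither sequence. In Atp6v0d1, the general d subunit, the CACGTG inside the element begins at position -3 from the start site.

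For hypertrophic minus round the 3 largest differences of the set were those of Atp6v0d2, Snx10 and Ctsk, all genes tied to the osteoclast. Others so tied, Ostm1 (1.54), Tcirg1 (1.15), Clcn7 (0.68) and Plekhm1 (0.50), lay within the 0.41 to 1.82 of the general V1 genes. Tcirg1, Atp6v0d2, the ruffled border partners Clcn7, Ostm1, Plekhm1 and Snx10, and Ctsk rose in 7 of 7 cases both for hypertrophic minus round, with a median log2 difference of 1.54, and for hypertrophic minus flat, with a median of 1.05. Between the flat and round layers 3 of the 7 rose, namely Atp6v0d2, Snx10 and Ctsk.

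Atp6v0d2, the d2 subunit, had 60, 167 and 129.6 in the round layer, 192, 424 and 212 in the flat layer and 2042, 2046 and 1693 in the hypertrophic layer. The layers did not overlap, and the step from flat to hypertrophic was the larger. The log2 difference was 3.83 ± 0.25 for hypertrophic minus round (adjusted p = 4.09e-07) and 2.77 ± 0.25 for hypertrophic minus flat (3.65e-05). Its round mean of 7.10 on the log2 scale lay below the filter of 7.212, the only tested member with a layer mean below it, so no fold is given and the size of its differences from round depends on the pseudocount. The flat minus round difference of 1.06 ± 0.25 (0.0107) lost its call without the flat array of litter 2 (0.88, adjusted p = 0.066), without the litter 1 round and litter 3 flat arrays together (0.0505) and with no litter block (0.0675).

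Its general counterpart Atp6v0d1, the d1 subunit, had 3164, 3097 and 3325 in the round layer, 3337, 3339 and 2939 in the flat layer and 3888, 4319 and 4132 in the hypertrophic layer. The hypertrophic arrays were the highest 3, but the difference was small at 0.36 ± 0.12 against either layer, with adjusted p = 0.0432 against round and 0.0761 against flat. The call against round was lost on leaving out any one array other than the flat arrays of litters 2 and 3 (adjusted p 0.0573 to 0.188). Per litter, the hypertrophic minus round difference of Atp6v0d2 exceeded that of Atp6v0d1 by 4.29, 2.95 and 3.15 (3.47 ± 0.72, SD, n = 3, exact two-sided sign-flip permutation p = 0.25). With 3 litters 0.25 is the smallest p this test can give.

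Tcirg1, the a3 subunit, had 884, 836 and 815 in the round layer, 1022, 1279 and 899 in the flat layer and 2024, 2130.3 and 1603 in the hypertrophic layer. The 3 layers did not overlap. The differences were 1.15 ± 0.14 for hypertrophic minus round (adjusted p = 8.27e-05), 0.84 ± 0.14 for hypertrophic minus flat (0.0025) and 0.31 ± 0.14 for flat minus round (0.159, not past the threshold).

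Atp6v0a1, the general a1 subunit, had 804, 233 and 534 in the round layer, 499, 289 and 479 in the flat layer and 449.5, 433 and 607 in the hypertrophic layer. Its layers overlapped throughout, the differences were 0.07 ± 0.25 for hypertrophic minus round (adjusted p = 0.882), 0.24 ± 0.25 for hypertrophic minus flat (0.625) and -0.18 ± 0.25 for flat minus round (0.693), and the round array of litter 1 was the highest. Per litter the hypertrophic minus round difference of Tcirg1 exceeded that of Atp6v0a1 by 1.98, 0.50 and 0.78 (1.08 ± 0.78, SD, n = 3, exact p = 0.25), with the largest value in litter 1.

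Ctsk, the main collagen-degrading protease of osteoclasts, had 1345, 1801 and 1580.0 in the round layer, 4151, 4992 and 2847 in the flat layer and 7486, 8642 and 6203 in the hypertrophic layer. The layers formed 3 separate steps. It differed by 1.30 ± 0.15 for flat minus round (adjusted p = 9.13e-05), by 0.92 ± 0.15 for hypertrophic minus flat (0.00187) and by 2.22 ± 0.15 for hypertrophic minus round (5.27e-07).

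Ctsl, a cathepsin of most cells, had 4461, 6526 and 6045 in the round layer, 3839, 4589 and 4843 in the flat layer and 4559, 4728 and 4099 in the hypertrophic layer. The layers overlapped, with differences of -0.33 ± 0.14 for hypertrophic minus round (adjusted p = 0.0977), 0.02 ± 0.14 for hypertrophic minus flat (0.964) and -0.35 ± 0.14 for flat minus round (0.104). Per litter the hypertrophic minus round difference of Ctsk exceeded that of Ctsl by 2.42, 2.71 and 2.51 (2.55 ± 0.15, SD, n = 3, exact p = 0.25). The size of this excess depends on the counterpart chosen. The 8 tested general cathepsins, Ctsl among them, differed by -0.62 to 1.63 in that contrast, with a median of 0.32.

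**Figure D2:**
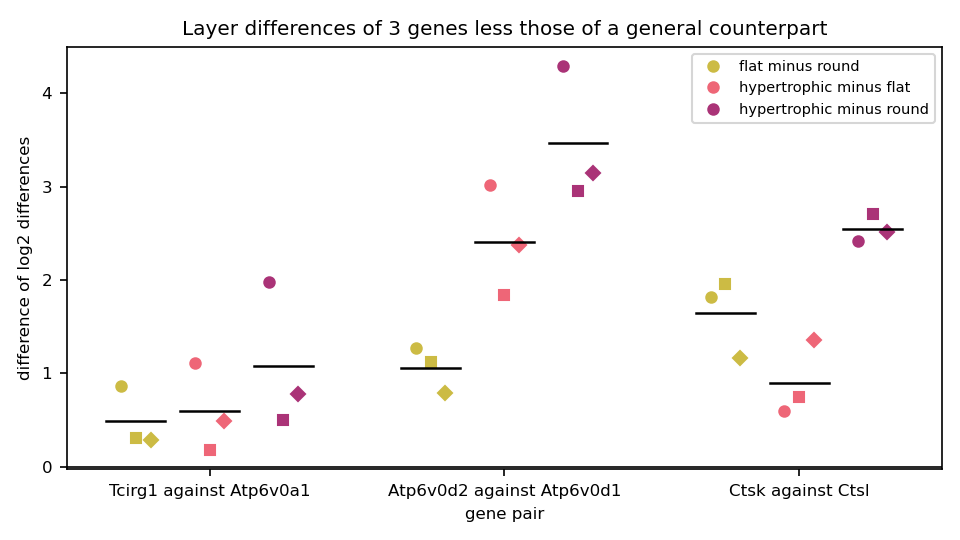
Difference between 2 layers in log2(signal + 26) for Tcirg1, Atp6v0d2 and Ctsk, less the same difference for Atp6v0a1, Atp6v0d1 and Ctsl, with 1 point per litter (circle, square and diamond for litters 1, 2 and 3), colour for the contrast and a bar for the mean. All 27 points lie above 0, from 0.18 to 4.29.

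Snx10, a sorting nexin whose loss blocks bone resorption, had 92.2, 164 and 225 in the round layer, 398, 496 and 325 in the flat layer and 1958, 2545 and 1529 in the hypertrophic layer. The layers did not overlap, and the differences were 3.49 ± 0.25 for hypertrophic minus round (adjusted p = 1.03e-06), 2.22 ± 0.25 for hypertrophic minus flat (0.000199) and 1.26 ± 0.25 for flat minus round (0.00428). Ostm1, the partner protein of the chloride exchanger, had 549, 302 and 330.1 in the round layer, 467, 408 and 407 in the flat layer and 1246, 1235 and 999.8 in the hypertrophic layer. Only the hypertrophic arrays stood clear, by 1.54 ± 0.18 against round (5.89e-05) and 1.38 ± 0.18 against flat (0.0005), while flat minus round was 0.15 ± 0.18 (0.616).

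Clcn7, the exchanger that lets chloride accompany the pumped protons, had 693, 473 and 464 in the round layer, 499, 355 and 379 in the flat layer and 919, 969 and 742 in the hypertrophic layer. Its hypertrophic arrays lay above all others, with 1.05 ± 0.17 for hypertrophic minus flat (adjusted p = 0.002), 0.68 ± 0.17 for hypertrophic minus round (0.0115) and -0.37 ± 0.17 for flat minus round (0.165). The call against round was lost without the round array of litter 2 (0.60, adjusted p = 0.0664) or the hypertrophic array of litter 2 (0.52, 0.102), and that against flat with the mean of all probe sets (0.62, 0.0722).

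Plekhm1, an adaptor for lysosome fusion and ruffled border formation, had 855, 523 and 474 in the round layer, 591, 558 and 420.4 in the flat layer and 1015, 871 and 702 in the hypertrophic layer. The round array of litter 1 overlapped the hypertrophic arrays, although hypertrophic exceeded round in all 3 litters. The differences were 0.69 ± 0.16 for hypertrophic minus flat (adjusted p = 0.0163), 0.50 ± 0.16 for hypertrophic minus round (0.0422) and -0.20 ± 0.16 for flat minus round (0.464). Leaving out the flat array of litter 1, the round array of litter 2 or 3 or any hypertrophic array ended the call against round (adjusted p 0.0516 to 0.207), and leaving out the flat array of litter 1 or 3 or any hypertrophic array ended that against flat (0.053 to 0.104). With no litter block the adjusted p was 0.19 and 0.14.

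**Figure D3:**
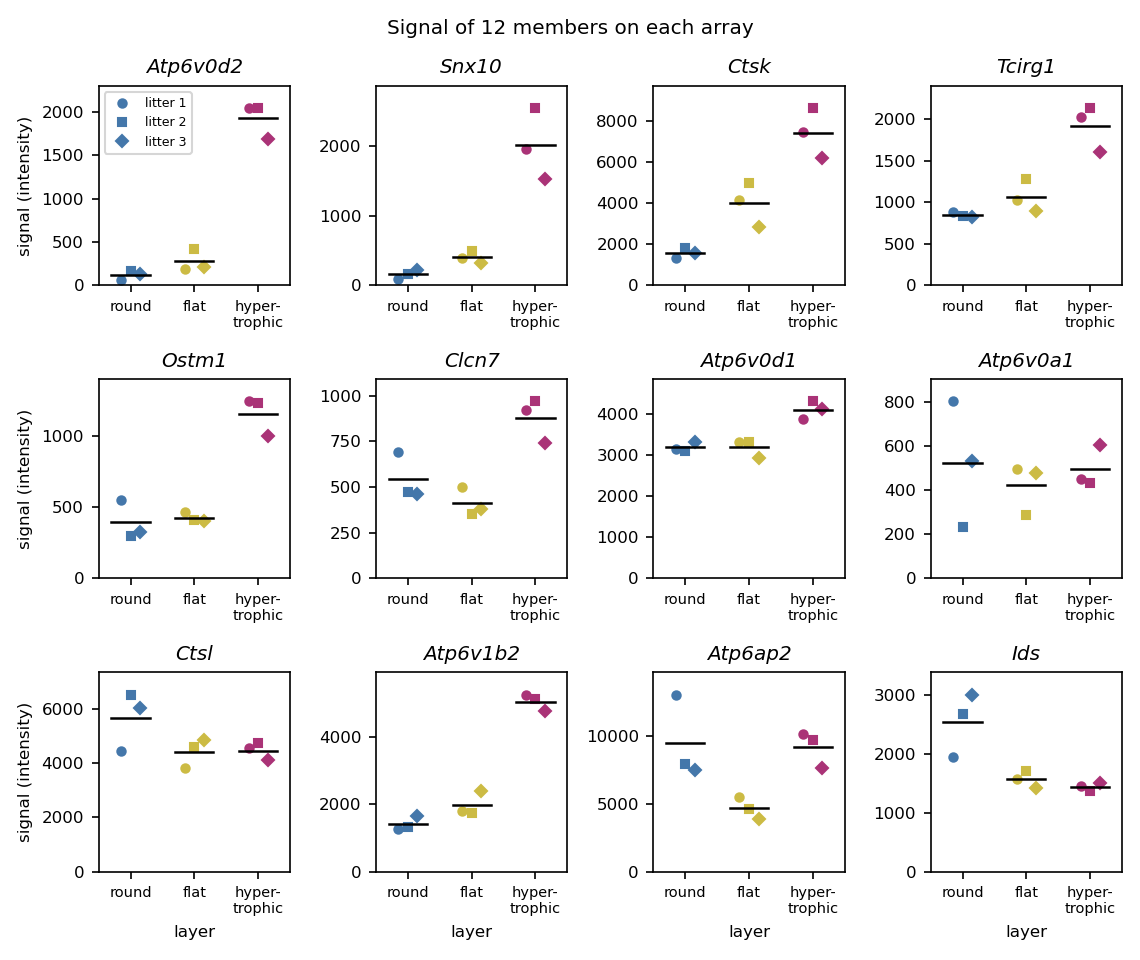
Signal of 12 members on the 9 arrays, with 1 panel per gene, layers along the axis, a marker shape per litter and a bar for the layer mean, on linear axes that start at 0. Atp6v0d2, Snx10 and Ctsk climb through the layers, Ostm1, Clcn7 and Atp6v1b2 stand out in the hypertrophic layer, Atp6v0a1 overlaps between layers, Atp6ap2 dips in the flat layer and Ids is highest in the round layer.

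Genes that mark osteoclasts, none of them in the set described here, were mostly higher in the hypertrophic layer too. Of 10 tested osteoclast markers (11 of 12 on the array), 8 rose and 0 fell for hypertrophic minus round, 9 rose for hypertrophic minus flat, and 5 rose and 2 fell for flat minus round. Of the 8, Dcstamp and Oscar had means below the filter in both other layers, so they were tested only through the layer where they were high. Without them 6 remain. Ocstamp, still among these 6, had a round mean of 5.55 on the log2 scale and a flat mean of 7.22, barely above the filter. It too was tested only through its hypertrophic mean of 10.51. The master regulator Nfatc1 and Jdp2, a transcription factor of osteoclast formation, differed by -0.11 ± 0.13 and 0.01 ± 0.13 for hypertrophic minus round (adjusted p = 0.573 and 0.971). Both fell for flat minus round, Jdp2 by -0.58 ± 0.13 (0.00701) and Nfatc1 to a signal of 1042 ± 25.4 in the flat layer, against 2115 ± 235 in the round layer (SD, n = 3, limma adjusted p = 0.000234). The summed signal of the 11 osteoclast markers on the array was 8761 to 9853 in the round layer, 13772 to 16267 in the flat layer and 72948 to 94249.8 in the hypertrophic layer. In the hypertrophic layer most of that sum was Mmp9 and Acp5, and the other 9 genes summed to 5730.4 to 5838 in the round layer, 4462 to 4860.5 in the flat layer and 12052 to 14280.5 in the hypertrophic layer. Acp5, the tartrate-resistant phosphatase, averaged 23336 ± 4073 in the hypertrophic layer and 1090.3 ± 342 in the round layer (log2 4.42 ± 0.23, adjusted p = 7.15e-08). The fusion genes Ocstamp and Dcstamp lay at 5.5 to 48.9 and 13 to 53 in the round layer, near the pseudocount, but at 1012 to 1742 and 782 to 963 in the hypertrophic layer. No marker was at exactly 0.

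Within the hypertrophic layer the osteoclast sum was 88529, 94249.8 and 72948 in litters 1, 2 and 3. The hypertrophic array of litter 2 held the highest value of the 9 arrays for 29 members, that of litter 1 for 7 and that of litter 3 for 0. Of 13 macrophage markers 6 rose and 1, Mrc1, fell for hypertrophic minus round, and their sum was 15033 to 16936 in the round layer, 17369.8 to 20675 in the flat layer and 26964 to 33719.8 in the hypertrophic layer. Csf1r, the receptor shared by macrophages and osteoclasts, rose by 1.48 ± 0.13 (adjusted p = 3.99e-06). The other risers were Cd68 by 2.36 ± 0.20 (3.99e-06), Tyrobp by 1.85 ± 0.15 (2.17e-06), Laptm5 by 1.52 ± 0.14 (8.83e-06), Lyz2 by 1.25 ± 0.20 (0.000643) and Fcgr1 by 1.01 ± 0.21 (0.00358). Adgre1, Cd14, Aif1, C1qa, C1qb and C1qc did not pass, with differences of -0.31 to 0.78. Of 6 tested osteoblast markers 5 rose and 0 fell in the same contrast, with a median log2 difference of 3.90, and their sum was 69579 to 91992 in the round layer, 86217 to 144209 in the flat layer and 150942 to 178677 in the hypertrophic layer. The part of these cells in the rise of the pump and lysosome genes was not tested.

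Among the other cathepsins, 5 of 11 tested rose and 1 fell for hypertrophic minus round. Ctsh, an aminopeptidase, had 396, 450.1 and 433 in the round layer, 566, 617 and 484 in the flat layer and 1372, 1511 and 1257 in the hypertrophic layer. The layers did not overlap, and the rise was 1.63 ± 0.15 against round (adjusted p = 6.57e-06) and 1.28 ± 0.15 against flat (0.000225), with 0.36 ± 0.15 for flat minus round (0.127). Ctsc, which activates the granule proteases of blood cells, had 1222, 1679 and 1920.0 in the round layer, 2643, 2376 and 2297 in the flat layer and 4117, 3822 and 3416 in the hypertrophic layer.

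Ctsc thus climbed in separate steps, by 1.24 ± 0.17 for hypertrophic minus round (adjusted p = 0.000163), 0.63 ± 0.17 for hypertrophic minus flat (0.0301) and 0.62 ± 0.17 for flat minus round (0.0239). The hypertrophic minus flat call was lost without the flat array of litter 2 or 3 or any hypertrophic array (adjusted p 0.0507 to 0.178). The flat minus round call was lost without any round or flat array of litters 1 and 2 (0.0556 to 0.14). Markers of neutrophils and their precursors, which use Ctsc, also differed. Of 9 on the array 5 were tested, and these 5 were higher for hypertrophic minus round. Elane, Prtn3, Camp and Ltf lay below the filter and were not tested. Of these, Elane had a lower hypertrophic than round mean (73.4 against 89.6), while Prtn3, Camp and Ltf had higher ones. The 9 genes summed to 2347 to 3376 (round), 4968 to 12006 (flat) and 7188 to 16812 (hypertrophic). The part of neutrophils and their precursors in the Ctsc result was not tested.

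Ctss, a cathepsin of antigen-presenting cells, rose by 0.76 ± 0.21 for hypertrophic minus round (adjusted p = 0.0186) with 2827 on the hypertrophic array of litter 2 against 1312 and 1329.6 on the other hypertrophic arrays. Without that array the difference was 0.43 (0.143), without the round array of litter 2 it was 0.62 (0.111) and without the hypertrophic array of litter 3 it was 0.82 (0.0519). Ctse, an aspartic protease, overlapped between all layers (round 159 to 736, flat 509 to 581, hypertrophic 411 to 641), though its other probe set above the filter differed by 1.04 for hypertrophic minus round. Ctsg, of neutrophil granules, and Ctsw, of cytotoxic lymphocytes, stayed at or below 167 and 141 on every array.

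The cathepsins made by most cells split. Ctsz, a carboxypeptidase, rose by 0.59 ± 0.16 for hypertrophic minus round (adjusted p = 0.0147) and Ctsa, the protective protein of sialidase and beta-galactosidase, by 0.39 ± 0.13 (0.0423). The Ctsz call was lost without the hypertrophic array of litter 1 (0.0864) or litter 2 (0.0939). The Ctsa call was lost without the flat array of litter 1, any hypertrophic array, or the round array of litter 2 or 3 (0.0544 to 0.232), and with no litter block (0.156). Ctsa and Ctsb, a cysteine protease, were higher in the hypertrophic than in the flat layer, by 0.71 ± 0.13 (0.00382) and 0.46 ± 0.13 (0.0345). With the mean of all probe sets that of Ctsa was 0.39 (0.21). The Ctsb call was lost without the flat array of litter 1 or 3 or any hypertrophic array (0.108 to 0.184).

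Ctsd, the main aspartic protease of lysosomes, differed by 0.06 ± 0.12 for hypertrophic minus round and 0.39 ± 0.12 for hypertrophic minus flat and passed in neither contrast (adjusted p = 0.774 and 0.0586). Ctsf, a cysteine cathepsin, ranged from 80.7 to 321 with overlap between all layers. Ctso, another cysteine cathepsin, fell, with 515, 580.4 and 664 in the hypertrophic layer against 806, 889 and 1055 in the round layer. The groups did not overlap, and the difference was -0.62 ± 0.15 (0.0107). The fall was not past the threshold without the hypertrophic array of litter 1 (0.0555) or 2 (0.054) or the round array of litter 3 (0.0575), nor with the mean of all probe sets (-0.29, 0.511).

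Of 9 tested enzymes that take apart glycosaminoglycans, Hexa, Glb1, Gusb, Galns and Arsb rose for hypertrophic minus round and for hypertrophic minus flat, 5 of 9 in each contrast. Ids, Idua, Naglu and Sgsh passed for a rise in no contrast. Ids fell for hypertrophic minus round and for flat minus round, and Naglu fell for flat minus round alone.

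Arsb, a sulfatase of dermatan and chondroitin sulfate, had 1264, 1641 and 1879 in the round layer, 1222, 1706 and 1457 in the flat layer and 3563, 4571 and 3806 in the hypertrophic layer. The round and flat arrays overlapped and the hypertrophic arrays stood clear, by 1.32 ± 0.13 against round (adjusted p = 1.77e-05) and 1.43 ± 0.13 against flat (5.41e-05). Glb1, lysosomal beta-galactosidase, had 901, 1059 and 1076 in the round layer, 684, 936 and 795 in the flat layer and 1804, 2173 and 1735 in the hypertrophic layer. It showed the same pattern, with 0.89 ± 0.14 against round (0.000467) and 1.22 ± 0.14 against flat (0.000198).

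Hexa, the alpha subunit of beta-hexosaminidase, had 7739, 5122 and 5468 in the round layer, 4689, 5043 and 3673 in the flat layer and 10101, 10356 and 8378 in the hypertrophic layer. The 3 layers did not overlap, with flat the lowest. The differences were 0.67 ± 0.14 for hypertrophic minus round (adjusted p = 0.0044), 1.11 ± 0.14 for hypertrophic minus flat (0.000431) and -0.44 ± 0.14 for flat minus round (0.0538). Gusb, beta-glucuronidase, rose by 0.85 ± 0.12 against round (0.00028) and 0.97 ± 0.12 against flat (0.000394).

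Galns, a sulfatase of keratan and chondroitin sulfate, rose by 0.47 ± 0.14 for hypertrophic minus round (adjusted p = 0.0268) and 0.66 ± 0.14 for hypertrophic minus flat (0.00879). The first call was lost without any hypertrophic array or the round array of litter 2 or 3 (0.0508 to 0.159), and the second without the hypertrophic array of litter 2 (0.0715). With the mean of all its probe sets the second difference turned to -0.32 (0.357) and the first was 0.12 (0.708). The only other probe set of Galns had a log2 mean of 5.82, below the filter.

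Ids, iduronate sulfatase, had 1939, 2675 and 3006 in the round layer, 1574, 1715 and 1417 in the flat layer and 1449, 1377 and 1507 in the hypertrophic layer. The round arrays were the highest 3, and the differences were -0.78 ± 0.16 for hypertrophic minus round (adjusted p = 0.00318), -0.11 ± 0.16 for hypertrophic minus flat (0.722) and -0.67 ± 0.16 for flat minus round (0.0117). The last call was lost without the round array of litter 2 (0.0649) or 3 (0.0735) or the flat array of litter 3 (0.0702). Naglu, a glucosaminidase, fell by 0.78 on the log2 scale for flat minus round (-0.78 ± 0.15, 0.00413), with 458, 787 and 448 in the flat layer against 817, 1112 and 948 in the round layer. Its flat minus round call was lost with no litter block (0.071) and without the litter 1 round and litter 3 flat arrays together (-0.63, 0.0529). Its hypertrophic minus flat difference was 0.49 ± 0.15 (0.0626). Sgsh, a heparan sulfatase, differed by 0.29 ± 0.28 for hypertrophic minus round (0.486) and 0.84 ± 0.28 for hypertrophic minus flat (0.0741), and Idua, iduronidase, by -0.27 ± 0.19 (0.334).

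Other proteins of the lysosomal lumen were mixed. Neu1, lysosomal sialidase, had 423, 581 and 567 in the round layer, 437, 398 and 495 in the flat layer and 1105, 1125 and 996 in the hypertrophic layer. The flat and round arrays overlapped, and the hypertrophic arrays stood above both, by 1.01 ± 0.17 against round (adjusted p = 0.00092) and 1.23 ± 0.17 against flat (0.000724). With the mean of all its probe sets the difference against round was 0.42 (0.267) and that against flat 0.33 (0.495). The other probe sets of Neu1 had log2 means of 6.49 and 6.07, below the filter. Tpp1, a tripeptidyl peptidase, rose by 0.75 ± 0.12 against round (0.000599) and 0.80 ± 0.12 against flat (0.00116).

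The 2 proteins that pass cholesterol out of the lysosome differed in their calls. Npc2, the soluble carrier, rose by 0.56 ± 0.12 for hypertrophic minus round (adjusted p = 0.00404), and its membrane partner Npc1 differed by -0.10 ± 0.20 (0.759). The difference between them was not tested, and with the mean of all probe sets Npc2 differed by 0.45 (0.0647). Npc2 also rose against flat, by 0.51 ± 0.12 (0.014), a call lost without the flat array of litter 1 or 3 or any hypertrophic array (0.0584 to 0.0915). Psap, the precursor of the saposins, differed by -0.08 ± 0.11 for hypertrophic minus round (0.648), with 9211 to 11179 in the hypertrophic layer and 9426 to 12893 in the round layer.

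Of Lamp1, Lamp2, Mcoln1 and Tfeb, 0 passed in any contrast (limma adjusted p under 0.05), and at an unadjusted p under 0.05 there was 1 higher for hypertrophic minus flat and 1 lower for hypertrophic minus round. Lamp1, the most used membrane marker, differed by 0.06 ± 0.13 for hypertrophic minus round (adjusted p = 0.799) and Lamp2, its relative, by 0.01 ± 0.20 (0.988). Mcoln1, a calcium channel, had 625 to 647 in the round layer, 482 to 666 in the flat layer and 709 to 777 in the hypertrophic layer. Its hypertrophic arrays were the highest 3, yet the difference of 0.22 ± 0.16 against round did not pass (0.34).

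Tfeb had 743, 413 and 319 in the round layer, 346, 541 and 513 in the flat layer and 318, 228 and 331 in the hypertrophic layer. The hypertrophic arrays lay below every flat array but overlapped the round ones, and the differences of -0.62 ± 0.29 against flat and -0.64 ± 0.29 against round did not pass (adjusted p = 0.208 and 0.133). Flat minus round was -0.01 ± 0.29 (0.984). Of its relatives, Mitf, needed for osteoclasts, differed by 0.05 ± 0.18 and Tfe3 by -0.21 ± 0.16 for hypertrophic minus round (0.877 and 0.372), and Tfec lay below the filter. The mRNA of these factors does not measure their protein or its place in the cell.

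Other genes of the same pathways were also on the array. Of 7 tested further pump subunits and assembly factors (10 of 12 on the array), 2 rose and 0 fell for hypertrophic minus round, Rnasek by 0.58 ± 0.14 (adjusted p = 0.00952) and Vma21, an assembly factor, by 0.57 ± 0.16 (0.0211), and 3 were higher and 0 lower at an unadjusted p under 0.05. Of 30 tested further lysosomal genes (31 of 37 on the array), 8 rose and 0 fell, with a median log2 difference of 0.10, and 11 were higher and 1 lower at an unadjusted p under 0.05. For flat minus round 1 of the 30 rose and 5 fell, among them Lipa, the lysosomal acid lipase, by -0.89 ± 0.17 (0.00324). Over all tested genes 8.39% rose and 8.64% fell in that contrast, and the 30 lay near their total of 17.0% in either direction. For hypertrophic minus round 12.4% of all tested genes rose and 12.7% fell.

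The largest rises among those further genes were in Gnptab, which makes the mannose phosphate tag that sends enzymes to the lysosome, by 1.36 ± 0.18 for hypertrophic minus round (adjusted p = 0.00017), and in Sort1, the sorting receptor sortilin, by 1.28 ± 0.18 (0.000245). Tmem192, a lysosomal membrane protein, rose by 1.15 ± 0.19 (0.000921), and Lgmn, the protease legumain, by 1.04 ± 0.19 (0.00157). Gla, alpha-galactosidase, rose by 0.99 ± 0.27 (0.0169) and Smpd1, acid sphingomyelinase, by 0.61 ± 0.13 (0.00475). In Gnptab the signals were 878, 1025 and 777 in the hypertrophic layer against 354, 294 and 346 in the round layer, with no overlap.

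Between the flat and round layers Atp6v1b2, Atp6v0d2, Snx10, Ctsk and Ctsc rose and Atp6ap2, Ids and Naglu fell. These 8 of 51 members are a share near the 17.0% of all tested genes that passed in either direction. In the same contrast all 12 skeletal muscle markers rose. Their summed signal was 294954 to 493864 in the flat layer and 122655 to 198364 in the round layer. All 12 fell for hypertrophic minus flat, with a median log2 difference of -1.08 and a sum of 120868 to 294491 in the hypertrophic layer. The part of muscle tissue in the lower flat values, in either contrast, was not tested.

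**Figure D4:**
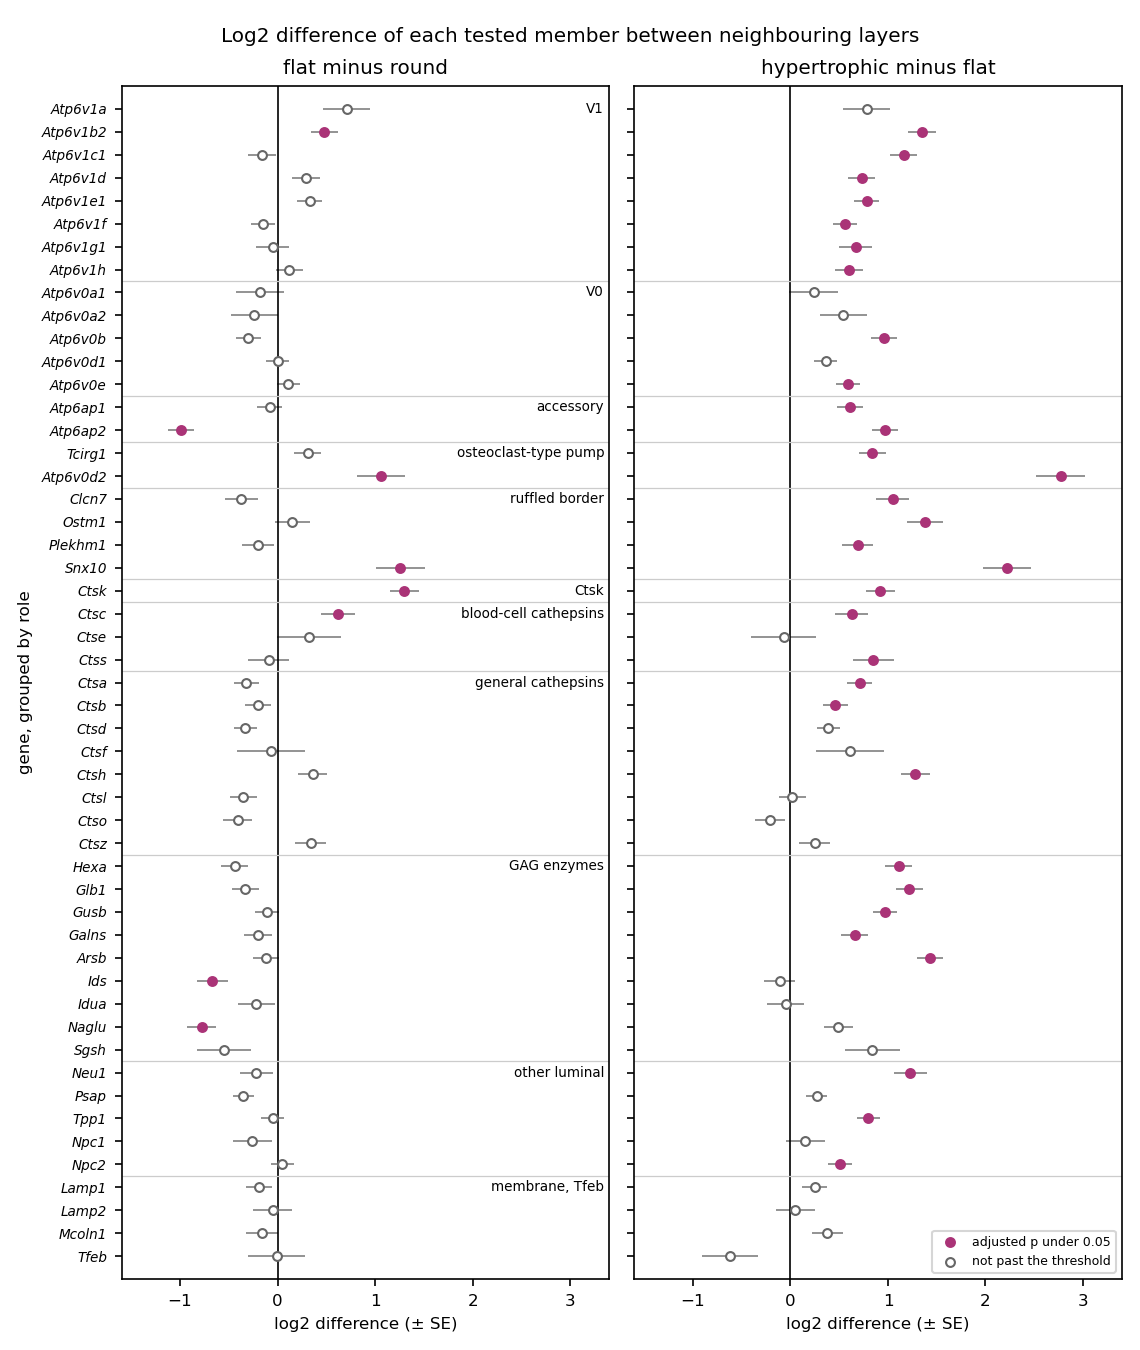
Log2 difference with its standard error for each of the 51 tested members, flat minus round on the left and hypertrophic minus flat on the right, with genes grouped by role and filled points for an adjusted p under 0.05. Most points on the right lie above 0 and 31 are filled, while on the left points lie on both sides of 0 and 8 are filled.

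Other probe sets of the same genes mostly pointed the same way. For 19 members that passed for hypertrophic minus round, 24 further probe sets lay above the filter, and 23 had the same sign as the probe set used. The exception was Atp6v1e1. A second probe set of Atp6v1b2 differed by 2.05 and that of Atp6v1a by 1.18.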

How the data were processed

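The deposited values are signal intensities of 45101 probe sets on 9 arrays, which the authors made with Affymetrix Expression Console and MAS5, per the submitters' processing notes. Tool versions are not given in the sources used here. The 2%-trimmed mean intensity of the deposited arrays averaged 500 over the 9 arrays, and their scaling was kept. Detection calls were not used here, so low signals, such as those of Atp6v0d2, Snx10, Ocstamp and Dcstamp in the round layer, could not be told from background other than by the filter on the mean. Probe sets were named through the platform annotation, leaving out 932 with several genes. Signals were taken as log2(signal + 26), 26 being the 20th percentile of all values. Genes with a mean above 7.212 entered limma (3.58.1, R 4.3.3) with layers, a litter block and a mean-variance trend, and p-values were adjusted by Benjamini-Hochberg over 11313 genes. Every adjusted p in the text is from limma. Per the labels, 3 litters gave the triplicates and each sample came from 1 litter. The replicate number was taken as the litter, since no label ties a number to a litter. Deviations of same-litter arrays correlated at 0.167 to 0.517 in 9 pairs. Full values are given for the osteoclast-type genes paired with general counterparts, ruffled border partners, Tfeb and members past the threshold with a log2 difference of at least 1 in size. The members and lists were chosen with earlier results of these data known. The number of arrays limits the precision, with a median standard error of 0.179.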

Additional observations from a re-analysis of the deposited data

How the results depend on the processing

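Of 73 differences past the threshold (8 flat minus round, 31 hypertrophic minus flat, 34 hypertrophic minus round), 37 stayed past it in every alternative that tested them and 1 reversed, Galns for hypertrophic minus flat (-0.32 with the mean of all probe sets). That mean takes in probe sets below the filter, as it does for Galns. With no replicate block the members that rose numbered 2, 24 and 26 in these contrasts, against 5, 31 and 32 with litters paired. Leaving out 1 array gave 2 to 6, 21 to 34 and 22 to 32 rises, and 2 to 4, 0 and 1 to 3 falls (1 for hypertrophic minus round without the hypertrophic array of litter 2). Flat minus round rises were 3 with no trend, 3 with the mean of all probe sets and 2 without both the litter 1 round and litter 3 flat arrays, which left 32 rises for hypertrophic minus round. Flat minus round falls were 5 with arrays centred on their medians and 5 after quantile normalization, and the cause was not tested. Hypertrophic minus round falls were 0 with the mean of all probe sets. In that setting Ids lay below the filter and was not tested, and Ctso lost its call. The scalings moved the median of all genes by at most 0.07. The promoter share was 31.8% with CACGTG, which is contained in TCACGTGA. The differences between the osteoclast-type genes and their chosen general counterparts kept their sign throughout. Pseudocounts of 6.5 and 104 and the other filters moved no count of members by over 1.5 times. Signals near the pseudocount, as of Atp6v0d2 in the round layer, limit the folds.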
